A study of Mus musculus with 2 samples.

Results

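The genes of chemokines and of the receptors that bind them were described in the DNase-seq data of adult mouse cortex. They were taken by symbol from the autosomal protein-coding genes of GENCODE M21: every Ccl, Cxcl, Ccr and Cxcr gene with a number, and Cx3cl1, Xcl1, Xcr1, Ackr1, Ackr2 and Ackr3. The rule gave 57 of 20807 genes, of which 37 encode ligands, 17 encode signalling receptors and 3 encode scavenging receptors (Ackr1, Ackr2, Ackr3). From what is known of their main sources, 5 were classed as neural, 7 as vascular and stromal, 10 as epithelial and 35 as leukocyte genes. The single group was tissue of the left cerebral cortex from B6CASTF1/J males aged 8 to 10 months, with no treatment stated, in 2 libraries labelled as biological replicates. B6CASTF1/J animals are F1 hybrids, and the files do not separate the parental alleles. The labels give both libraries the same donor identifier with different sample identifiers, so the spread between them may leave out variation between animals.

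DNase I cuts DNA where nucleosomes and other proteins leave it exposed. The files list such accessible intervals as peaks, and as footprints the short stretches inside them that were protected, as by a bound protein. A peak was counted at a promoter where it overlapped the 1 kb on either side of any annotated transcript start of the gene. It was counted as distal where its midpoint lay in the gene or within 10 kb of it and over 1000 bp from every annotated start of any gene. The stricter of the deposited peak lists is called narrow and the larger one broader. The strength of a peak is its deposited signal value, whose scaling is not given. A replicate library held 40705 (replicate 1) or 39508 (replicate 2) narrow peaks, 71210 or 72217 peaks of the broader list and 166128 or 174394 footprints. Read totals were not among the values used, so the sequencing depth is unknown. With 1 group of 2 libraries there was no test, and no p-value was computed.

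Chemokines are small secreted proteins that direct cell migration through receptors coupled to G proteins of the Gi class. Many are silent in resting tissue and are switched on by NF-kappa-B, interferon and AP-1 signalling during infection or injury, while a few act at all times. In the brain, neurons make fractalkine (Cx3cl1), whose receptor Cx3cr1 is on microglia. Cxcl12 guides migrating neurons and blood vessels through Cxcr4, and Ackr3 removes Cxcl12 from the extracellular space. Cxcl14 is made by some cortical interneurons. In whole tissue, fewer cells of a type and lower accessibility in each cell cannot be told apart.

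The promoter intervals below are printed because they show which bases were accessible at the receptor and ligand genes of the Cxcl12 system and at Ccl2, a ligand that attracts monocytes. Each comes from the pair of overlapping narrow peaks whose weaker peak was strongest, and is the part shared by both libraries without untranslated or coding bases. They are mm10 reference sequence, written 5′ to 3′ on the strand of the gene, and capitals mark bases that lay in footprints of both libraries. The Ackr3 interval is chr1:90203881-90203979 on the plus strand and ends at the base before the annotated start. The Cxcr4 interval is chr1:128592985-128593220 on the minus strand, upstream of the gene. The Cxcl12 interval is chr6:117168717-117168900 on the plus strand, in an intron next to the first exon. The Ccl2 interval is chr11:82035468-82035570 on the plus strand and also ends at the base before the start.
Ackr3 promoter: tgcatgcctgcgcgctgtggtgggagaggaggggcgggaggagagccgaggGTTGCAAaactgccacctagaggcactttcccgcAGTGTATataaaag
Cxcr4 promoter: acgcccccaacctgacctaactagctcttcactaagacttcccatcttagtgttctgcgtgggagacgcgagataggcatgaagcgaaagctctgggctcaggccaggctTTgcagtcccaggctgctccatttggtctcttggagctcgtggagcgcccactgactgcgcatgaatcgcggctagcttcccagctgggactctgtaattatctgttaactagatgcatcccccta
Cxcl12 promoter: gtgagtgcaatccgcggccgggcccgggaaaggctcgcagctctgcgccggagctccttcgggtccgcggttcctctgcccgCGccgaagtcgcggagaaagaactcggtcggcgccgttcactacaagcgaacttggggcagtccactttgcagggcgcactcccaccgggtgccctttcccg
Ccl2 promoter: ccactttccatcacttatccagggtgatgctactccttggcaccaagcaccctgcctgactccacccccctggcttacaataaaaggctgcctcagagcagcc
The Ackr3 stretch held 14 bases footprinted in both libraries and matches to the GC box (GGGCGG) and the TATA box (TATAAA). The Cxcr4 and Cxcl12 stretches held 2 such bases each, and the Ccl2 stretch held 0.

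The distal intervals are printed because they show distal accessibility at 3 neural and 2 leukocyte genes and hold footprints shared by both libraries. The Cxcl12 interval, chr6:117166941-117167100 on the plus strand, is intergenic with its midpoint at -1515 bp from the start. The Cxcl14 interval, chr13:56279521-56279740 on the minus strand, is intergenic, 16675 bp past the nearest start of the gene in the direction of transcription. The Ackr3 interval, chr1:90222180-90222374 on the plus strand, is intergenic and 18271 bp past the start. The Ccl17 interval, chr8:94812881-94813080 on the plus strand, is intergenic and 2527 bp past the start. The Cxcl2 interval, chr5:90909112-90909256 on the plus strand, is intergenic and 5311 bp past the start.
Cxcl12 distal: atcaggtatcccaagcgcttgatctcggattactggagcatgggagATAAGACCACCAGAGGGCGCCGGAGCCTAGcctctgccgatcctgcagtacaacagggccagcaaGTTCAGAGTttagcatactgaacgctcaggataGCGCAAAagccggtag
Cxcl14 distal: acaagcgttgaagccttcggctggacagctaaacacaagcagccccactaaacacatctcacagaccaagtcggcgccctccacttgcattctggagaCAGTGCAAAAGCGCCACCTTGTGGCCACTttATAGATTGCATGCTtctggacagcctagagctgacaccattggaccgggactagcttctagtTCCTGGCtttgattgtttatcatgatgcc
Ackr3 distal: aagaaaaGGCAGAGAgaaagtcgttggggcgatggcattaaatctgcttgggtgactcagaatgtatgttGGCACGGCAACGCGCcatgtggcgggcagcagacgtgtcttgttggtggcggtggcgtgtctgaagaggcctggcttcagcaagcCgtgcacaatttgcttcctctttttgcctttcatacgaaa
Ccl17 distal: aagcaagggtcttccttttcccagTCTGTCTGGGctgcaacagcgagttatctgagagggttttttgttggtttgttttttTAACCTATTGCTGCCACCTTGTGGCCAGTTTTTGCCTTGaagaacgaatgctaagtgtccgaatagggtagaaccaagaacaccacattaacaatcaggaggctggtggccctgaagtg
Cxcl2 distal: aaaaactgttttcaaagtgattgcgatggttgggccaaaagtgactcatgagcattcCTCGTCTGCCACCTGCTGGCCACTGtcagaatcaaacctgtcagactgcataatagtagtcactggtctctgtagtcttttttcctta
The bases footprinted in both libraries numbered 46 at Cxcl12, 50 at Cxcl14, 24 at Ackr3, 49 at Ccl17 and 25 at Cxcl2. A match to the CTCF consensus, searched by that name on both strands, lay inside the footprinted bases at Cxcl12 and at Cxcl2. The Ackr3 and Cxcl2 stretches held a match to the AP-1 consensus (TGANTCA), outside the footprinted bases.

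A narrow promoter peak was present in both libraries at 9 of the 57 genes (15.8%), against 56.0% of all autosomal protein-coding genes. They included Cx3cl1, Cxcl12, Cxcl14, Cxcr4, Ackr3, Ccl2, Ccl25 and Ccl28. Ackr2 and Ccr10 had one in replicate 2 only. The broader list placed promoter peaks of both libraries at 13 of 57 genes (22.8%), against 62.0% of all genes. The additions were Ackr2, Ccr10, Ccl27a and Cxcl5, the last of these a neutrophil attractant. Promoter footprints were present in both libraries at 12 of 57 genes (21.1%), against 60.2% of all genes. At 22 of the 57 genes (38.6%) neither list held a promoter or distal peak in either library, against 20.8% of all genes. Of the 22, Cxcl16 and Cxcl17 (2 and 1) and Xcr1 (2 and 2) had narrow peaks within 10 kb in replicates 1 and 2 that lay too near other annotated starts to count as distal. Below, a gene without a peak is one with no peak counted by these definitions.

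**Figure D1:**
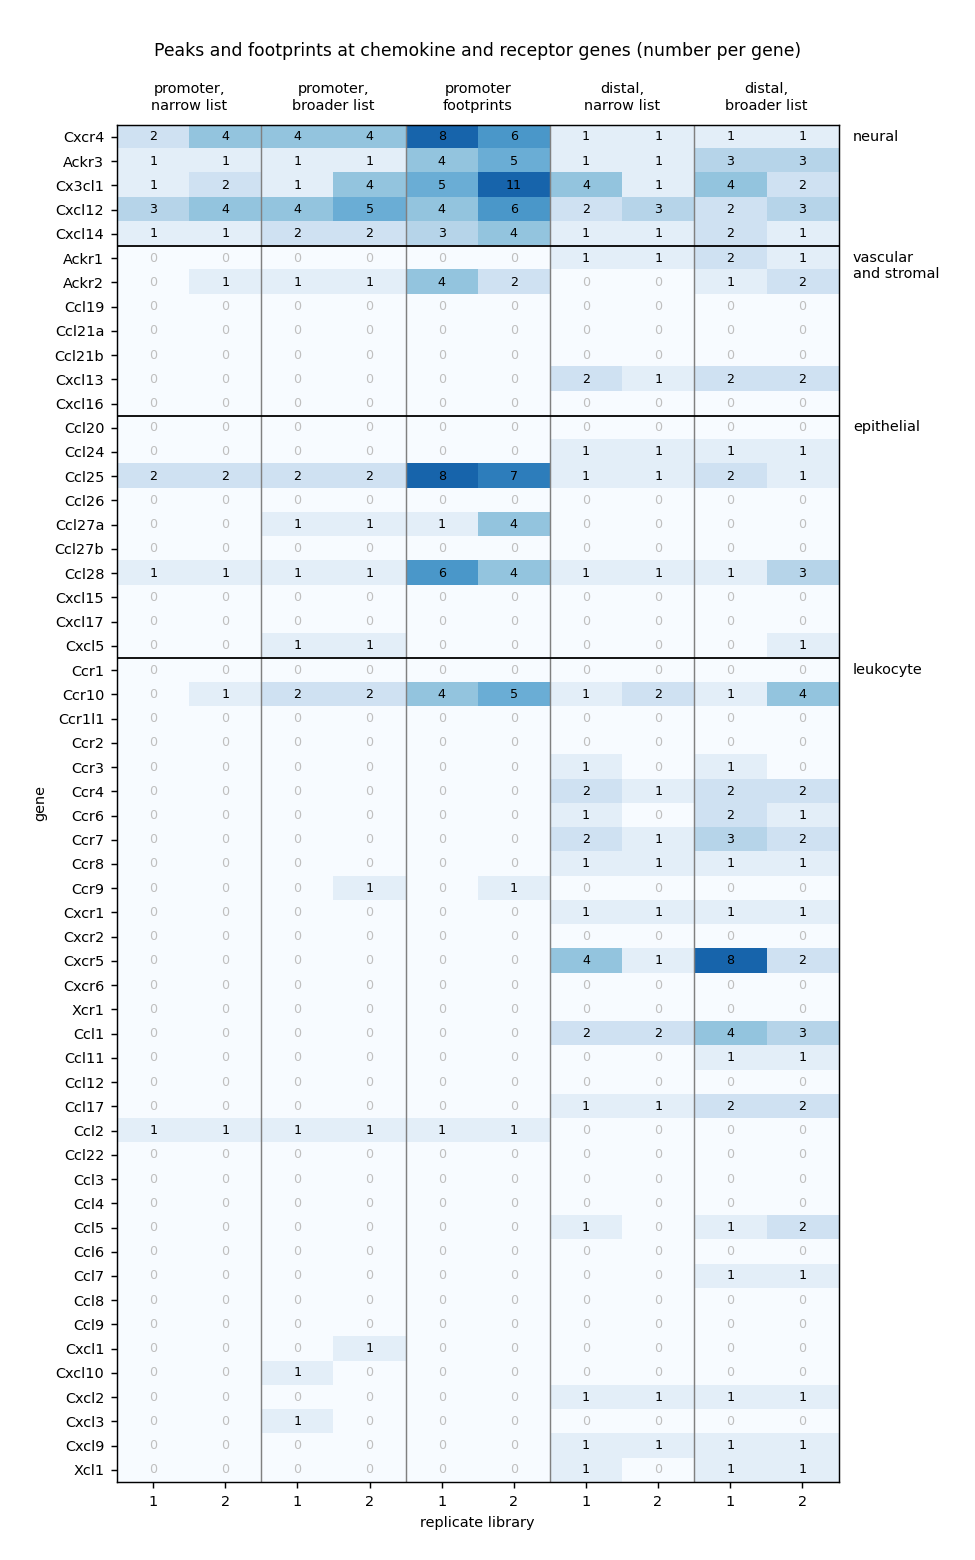
Number of promoter peaks, promoter footprints and distal peaks (columns, replicates 1 and 2 side by side) at the genes shown (rows, grouped by class, darker for higher counts). The 5 neural genes at the top have entries in every column, while rows of 0 fill much of the leukocyte block.

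The classes differed in these counts. All 5 neural genes had a narrow promoter peak, a promoter footprint and a distal narrow peak in both libraries. Of the 7 vascular and stromal genes, 0 had a narrow promoter peak in both libraries and 4 had no peak of either list. Of the 10 epithelial genes, 2 had a narrow promoter peak in both libraries and 5 had no peak. Of the 35 leukocyte genes, 2 had a narrow promoter peak in both libraries, 10 had a distal narrow peak in both and 13 had no peak. The corresponding shares of all genes were 56.0%, 32% and 20.8%. The classes were drawn up with results of these data known, so the counts describe these genes and support no rule about a class.

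Among the neural ligands, Cx3cl1, a membrane-bound ligand shed by Adam10 and Adam17, had the strongest promoter peak. Its strength was 2.49 in replicate 1 and 2.65 in replicate 2 (2.57 ± 0.110, SD, n = 2), at chr8:94772032-94772289 and chr8:94772041-94772320, over exon sequence at the start. These values stood at the 44.7 and 58.1 percentiles of promoter peaks in their own libraries, near the middle of all genes with one. Promoter footprints numbered 5 in replicate 1 and 11 in replicate 2. Within the gene the narrow lists differed between libraries. Replicate 1 held 4 distal narrow peaks between chr8:94780445 and chr8:94782240, at the end of the gene, with strengths of 0.408 to 0.891. Replicate 2 held 1, in an intron at chr8:94773661-94774080, with a strength of 1.23. No distal narrow peak of either library overlapped one of the other. In the broader list both libraries held the intron peak, at 1.32 in replicate 1 and 1.23 in replicate 2, and the peak at the end of the gene, at 0.891 and 0.917.

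Cxcl12 had 3 narrow promoter peaks in replicate 1 and 4 in replicate 2, spread over both sides of the start. The strongest reached 0.644 and 0.731 (0.688 ± 0.0615, SD, n = 2), at the 2.42 and 4.27 percentiles of promoter peaks, so both libraries placed it among the weakest promoter peaks of the genome. Some of its distal peaks were stronger. The intergenic peak printed above had a strength of 2.86 in replicate 1 and 1.75 in replicate 2. A peak in an untranslated part of the gene, at chr6:117173941-117174160, had 1.56 and 2.01. The order of these distal peaks was thus opposite in the libraries, and each exceeded the strongest promoter peak in both. Replicate 2 had another distal narrow peak in the intron, at 0.611, which also overlapped the promoter window and is among its 4 promoter peaks.

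Cxcl14 had 1 narrow promoter peak in each library, with a strength of 1.18 in replicate 1 and 0.861 in replicate 2 (1.02 ± 0.229, SD, n = 2). These stood at the 13.4 and 6.85 percentiles. The intergenic peak past the end of the gene had identical borders in both libraries and strengths of 2.72 and 2.80. It held 3 footprints in replicate 1 and 2 in replicate 2. Promoter footprints numbered 3 and 4.

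Among the neural receptors, Cxcr4 had 2 narrow promoter peaks in replicate 1 and 4 in replicate 2. The strongest had a strength of 0.919 in replicate 1 and 0.741 in replicate 2 (0.830 ± 0.126, SD, n = 2), at the 7.34 and 4.43 percentiles. They were different intervals: the first lay at chr1:128592241-128592720 and the second at chr1:128592976-128593246. Its distal narrow peak, in the intron, had 0.493 and 0.685. Ackr3 had 1 narrow promoter peak per library, at 1.59 and 1.88 (1.74 ± 0.203, SD, n = 2), over its annotated start. These stood at the 23.3 and 35.6 percentiles. The intergenic peak past the end of Ackr3 had 1.13 and 1.67, below the promoter peak in each library.

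**Figure D2:**
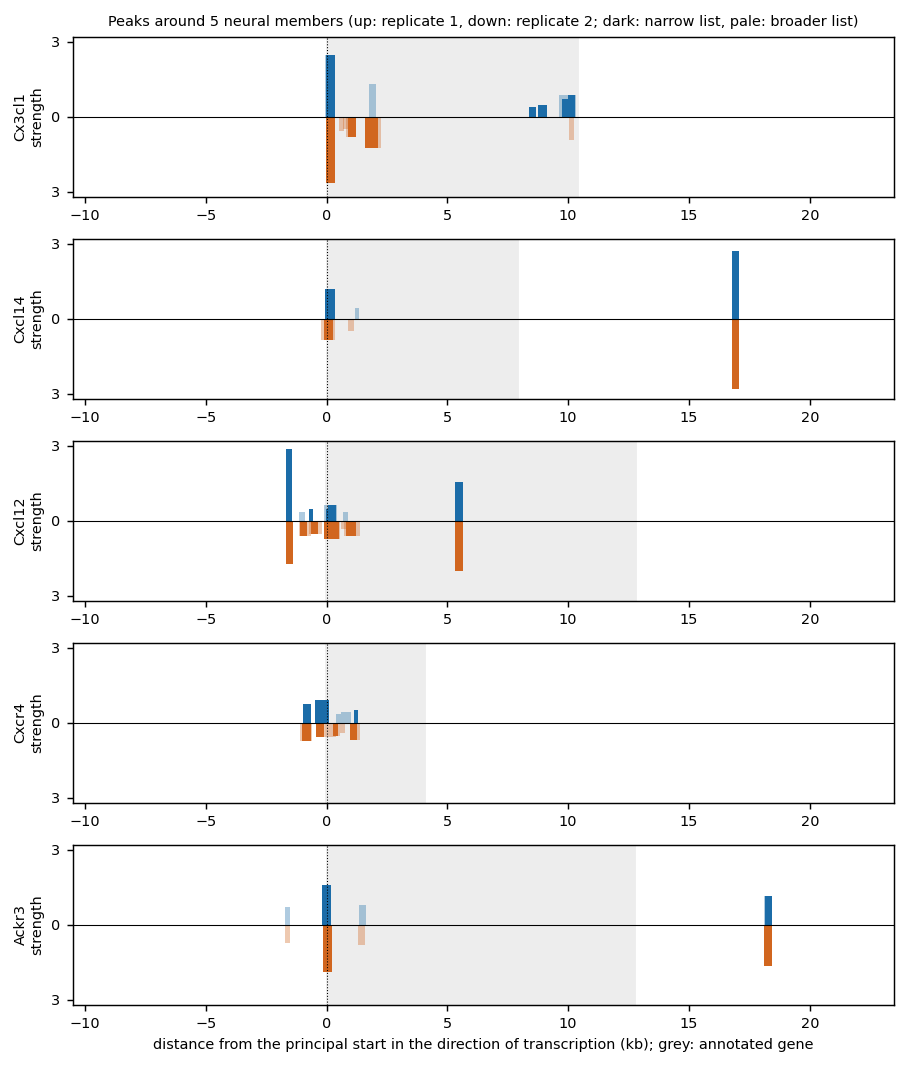
Peaks at the 5 neural genes by distance from the principal start (kb, in the direction of transcription, grey for the annotated gene), with bar height showing strength, upward for replicate 1 and downward for replicate 2. Dark bars are narrow peaks and pale bars are of the broader list: the tallest bars of Cxcl12 (2.86) and Cxcl14 (2.80) stand away from the start, and those of Cx3cl1 (2.65) and Ackr3 (1.88) stand at it.

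Outside the neural class, the leukocyte ligand Ccl2 had narrow promoter strengths of 0.616 in replicate 1 and 0.639 in replicate 2 (0.627 ± 0.0161, SD, n = 2), at the 1.95 and 2.69 percentiles, with its peak across the start. Each library had 1 footprint there. The interval also lies in an intron of the annotated gene Gm17268.

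Ccl25 and Ccl28 are ligands of gut and mucosal epithelium. Ccl25 had strengths of 4.96 in replicate 1 and 4.08 in replicate 2 (4.52 ± 0.618, SD, n = 2), at the 88.5 and 87.6 percentiles. That peak, chr8:4325061-4325320, covers upstream starts of Ccl25 and overlaps Elavl1, a gene for an RNA-binding protein of most cells. Its midpoint is in an untranslated region of Elavl1. The principal start of Ccl25 is at position 4349588 of chromosome 8, and no narrow peak of either library was counted there. Ccl28 had 0.891 and 0.722 (0.807 ± 0.119, SD, n = 2), at the 6.74 and 4.05 percentiles, at a start inside the gene. Counted at the principal start alone, 6 genes had a narrow promoter peak in both libraries, against 52.3% of all genes. Ccl25 and Ccl28 were not among the 6.

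**Figure D3:**
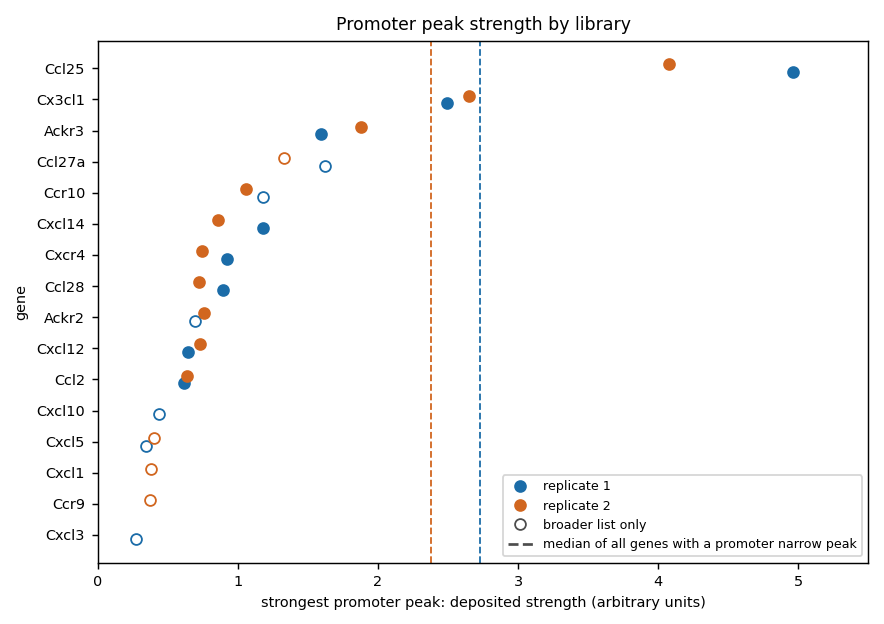
Strength of the strongest promoter peak (horizontal axis, deposited signal, arbitrary units) of genes with one (rows), by library, filled for narrow peaks and open for genes with a peak of the broader list only. Dashed lines are the medians over all genes with a narrow promoter peak, 2.73 in replicate 1 and 2.38 in replicate 2; Ccl25 lies above its library's median in both replicates, Cx3cl1 does so in replicate 2 only, and the others do so in neither.

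A strength exists only where a peak was called, so the medians compare called peaks. Over the genes with a narrow promoter peak in that library, the median was 0.919 in replicate 1 (9 genes) and 0.759 in replicate 2 (11 genes). The medians over all genes with one were 2.73 and 2.38. Ackr2, a scavenger of inflammatory chemokines on lymphatic endothelium, had 0.759 in the narrow list of replicate 2 and 0.692 in the broader list of replicate 1, at a start inside the gene. Ccr10 had 1.06 in the narrow list of replicate 2 and 1.18 in the broader list of replicate 1. Those intervals are introns of its neighbour Cntnap1, a gene of axon and myelin junctions. In the broader list alone, Ccl27a, a skin chemokine, had 1.62 and 1.33, and Cxcl5 had 0.341 and 0.398. The Ccl27a peaks were at upstream starts and not at the principal start, and the gene overlaps Il11ra1. Promoter peaks of the broader list in a single library were found at Cxcl3 (0.275) and Cxcl10 (0.436) in replicate 1 and at Cxcl1 (0.380) and Ccr9 (0.370) in replicate 2. Cxcl1 and Cxcl3 attract neutrophils, and Cxcl10 is an interferon-induced ligand that attracts T cells. All 4 were at or below 0.436.

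The remaining vascular and stromal genes had few peaks. Ackr1, which carries chemokines across venular endothelium, had 0 promoter peaks and 1 distal narrow peak per library, at 1.29 in replicate 1 and 1.49 in replicate 2. That peak is in an intron of the neighbouring neural adhesion gene Cadm3, at chr1:173339673-173339771 in replicate 1. Cxcl13, the B cell attractant of lymphoid stroma, had 2 distal narrow peaks in replicate 1 and 1 in replicate 2, the strongest at 1.08 and 0.630. Cxcl16, Ccl19, Ccl21a and Ccl21b had 0 promoter and 0 distal peaks of either list. Ccl19 and the Ccl21 genes guide T cells into lymph nodes.

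Near-identical gene copies limit what some of these zeros show. At the promoter windows of Ccl21b and Ccl27b 0.0% of 32-base words occurred once in the genome, and the share was 16.7% at Ccl21a, 18.9% at Ccl19 and 33.0% at Ccl27a. In the other 52 genes it was at least 81.4%. Around Ccl19, Ccl21a, Ccl21b and Ccl27b the deposited table of false discovery rates held 0 intervals within 50 kb in both libraries, so an absence of peaks there is also an absence of any listed interval. The same was true of Ccl3, Ccl8 and Ccl12, whose promoter words are largely unique.

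Distal accessibility was closer to that of all genes. A distal narrow peak was present in both libraries at 20 of 57 genes (35.1%), against 32% of all genes. In the broader list the count was 26 of 57 (45.6%), against 48.1%. Of the 46 genes with no narrow promoter peak in either library, 12 (26.1%) had a distal narrow peak in both, against 22.2% of all genes of that kind. The shares are near the background and say nothing particular about chemokine genes. Neighbouring genes fill some of these windows, as for Ackr1, Ccr10 and Cxcr5.

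The strongest distal peak was next to Ccl17, a ligand for Ccr4 on T cells that lies close to Cx3cl1. Its strength was 3.34 in replicate 1 and 3.39 in replicate 2, with identical borders in both libraries, and Ccl17 had no promoter peak of either list. Ccr7, the receptor for Ccl19 and Ccl21, had an intron peak at chr11:99150001-99150220, also with identical borders, at 1.88 and 1.92. Ccr4 had an intron peak at 1.54 and 1.19. Ccl1 had 2 distal narrow peaks per library, the strongest at 0.976 and 0.694. Its annotated span is 129 kb. The weaker peak lay in an intron, 49941 bp (replicate 1) and 49944 bp (replicate 2) from the nearest start of Ccl1. These 4 genes had 0 promoter peaks of either list in either library.

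Cxcr5, the receptor for Cxcl13 on B cells, had 4 distal narrow peaks in replicate 1 and 1 in replicate 2, and none overlapped between libraries. All lay in the adjoining gene Bcl9l. In the broader list the libraries shared an intron peak, at 2.34 in replicate 1 and 2.61 in replicate 2, and a peak in an untranslated region, at 1.72 and 1.69. For those shared peaks, the narrow lists differed in which library's list held them. The other narrow peaks of replicate 1, at 0.265 to 0.284, had no counterpart among the distal peaks of the broader list in replicate 2. Cxcl9, an interferon-induced ligand, had an intergenic peak at 2.39 and 1.60, and Ccl24, an eosinophil attractant, had one at 0.569 and 0.593. Xcl1, Ccr3, Ccl5 and Ccr6 had a distal narrow peak in replicate 1 only, with strengths of 0.408 (Ccr3) to 0.844 (Ccr6). Ccl7 and Ccl11 shared 1 distal peak of the broader list, at 0.389 and 0.398.

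In all, 35 different distal narrow peaks were counted at these genes in replicate 1, and 20 of them (57.1%) overlapped a distal narrow peak of replicate 2. In replicate 2 there were 24, of which 20 (83.3%) overlapped. Over all genes the shares were 67.6% of 19730 and 75.1% of 17764. Median strength was 0.976 in replicate 1 and 1.31 in replicate 2, against 1.03 and 0.954 over all genes.

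Both kinds of narrow peak in both libraries were present at 7 of the 57 genes, against 4435 of all 20807 genes. In 3 of the 7 (42.9%) the strongest distal peak exceeded the strongest promoter peak in each library, against 21.8% of all genes with both. The 3 were Cxcl12, Cxcl14 and Ccl28. Ccl28 had 1.45 and 1.21 in its intron against 0.891 and 0.722 at the promoter. In Cx3cl1, Ackr3, Cxcr4 and Ccl25 the promoter peak was the stronger one in both libraries.

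**Figure D4:**
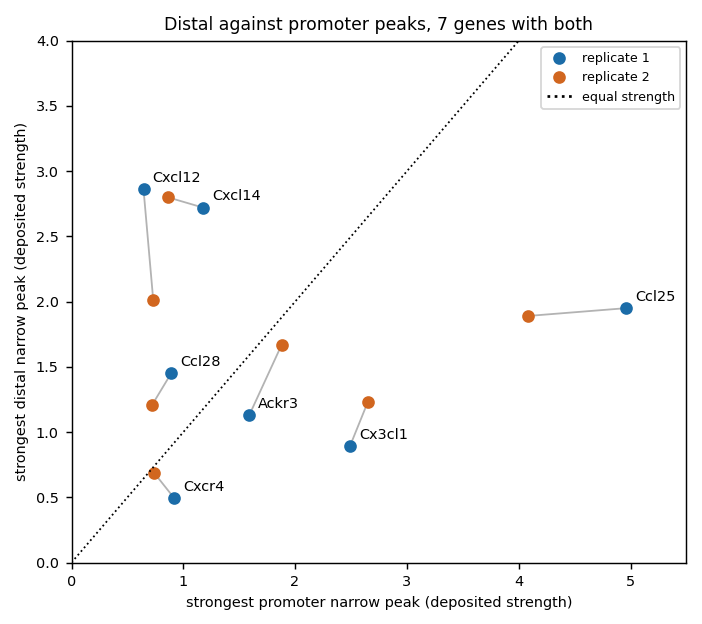
Strength of the strongest distal narrow peak (vertical axis) against that of the strongest promoter narrow peak (horizontal axis) for the 7 genes with both, deposited signal, with the replicates of a gene joined by a line. Cxcl12, Cxcl14 and Ccl28 lie above the line of equal strength in both libraries.

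The promoters were mostly poor in CpG, a feature the choice by symbol did not use. A promoter was called CpG-rich where the 500 bp on either side of the principal start had a GC share of at least 50% and an observed over expected CpG ratio of at least 0.6. Of the 57 genes 5 (8.77%) were CpG-rich, against 47.5% of all genes. These were Cxcl12 (ratio 0.787), Cxcl14 (0.717), Cxcr4 (0.625), Cxcl16 (0.607) and Ccr9 (0.927). The median ratio was 0.205 over the 57 genes and 0.586 over all genes. A narrow promoter peak in both libraries was found at 3 of the 5 CpG-rich genes, against 87.8% of all CpG-rich genes. Of the 52 CpG-poor genes 6 (11.5%) had one, against 27.3% of all CpG-poor genes. In the broader list the CpG-poor count was 10 of 52 (19.2%), against 33.9%. The share was below that of all genes within the CpG-poor class too. Cx3cl1 (0.481) and Ackr3 (0.361) were the neural genes below the limit.

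**Figure D5:**
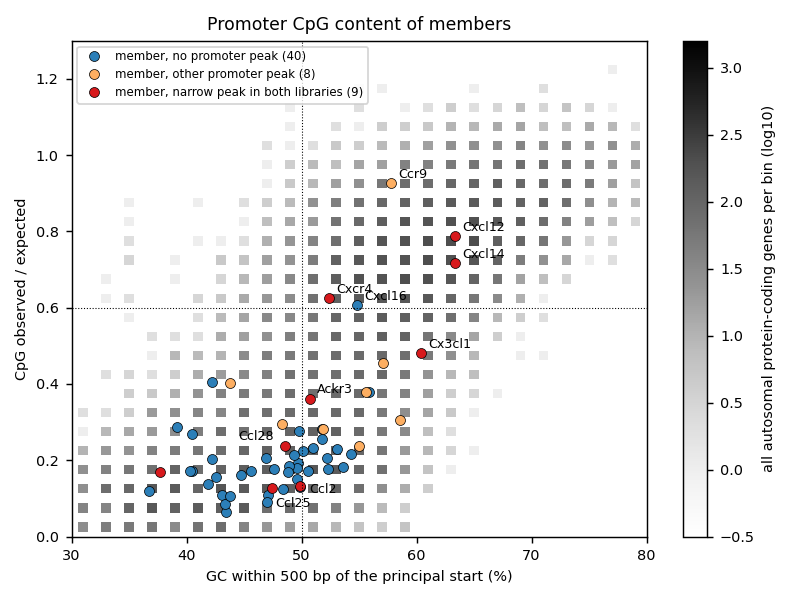
Observed over expected CpG ratio (vertical axis) against GC share (horizontal axis, %) within 500 bp of the principal start, with grey squares for all autosomal protein-coding genes (shade on a log10 scale) and circles for the 57 genes, coloured by promoter peak. Dotted lines are the limits of the CpG-rich class: 5 genes lie in its corner and most of the others lie at low CpG, where squares of all genes are also dark.

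Consensus matches were counted in the 250 bases before to 50 after the principal start, on both strands. A match is a run of letters and not a shown binding site. Kappa-B, searched by name, was found at 13 of 57 genes (22.8%), against 9.59% of all genes. They included the neutrophil attractants Cxcl1, Cxcl2, Cxcl3 and Cxcl5, the T cell ligands Ccl5 and Cxcl10, and Ccl20. None of the 13 was among the 9 genes with a narrow promoter peak in both libraries. The share of all genes with a given motif that had such a peak was not computed. These overlaps, here and for the motifs below, therefore support no statement about a motif. The motif window is at the principal start only, whereas a peak could lie at any start of the gene. The AP-1 consensus was found at 10 genes (17.5%, against 6.60%), of which 1 had such a peak (Ccl28, at another start than the one searched). An interferon response core (GAAANNGAA) was found at 9 genes (15.8%, against 8.49%), Cxcl9 and Cxcl10 among them, and 1 of the 9 had such a peak (Cxcl14). The TATA box was found at 18 genes (31.6%, against 12.6%).

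The GC box went the other way. It was found at 10 genes (17.5%, against 46.2%), of which 5 had a narrow promoter peak in both libraries: Ackr3, Ccl28, Cxcl12, Cxcl14 and Cxcr4. The peak of Ccl28 was again not at the start searched. Within CpG-poor promoters, kappa-B was found at 13 of 52 genes, against 8.08% of all CpG-poor genes, and the TATA box at 17, against 18.8%. The AP-1 consensus was found at 10 of 52, against 9.53%, the interferon response core at 8, against 10.7%, and the GC box at 6, against 21.6%. The other consensus sequences were rare. ETS (CCGGAAG) was found at 1 gene, PU.1 (GAGGAAGT) at 3, CRE (TGACGTCA) at 1, NRF1 (GCGCATGCG) at 1 and CTCF, by name, at 0. The genome shares were 11.5%, 3.22%, 2.49%, 2.24% and 0.562%. GGGCGG and the other letter runs can overlap each other in a window.

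In the 20 distal peaks shared by the libraries, CTCF matches were found in 3 peaks (at Ccl1, Cxcl12 and Cxcl2), against 18.5% and 17.9% of all shared distal peaks in replicates 1 and 2. AP-1 matches were found in 5 in replicate 1 and 4 in replicate 2, against 8.05% and 7.47%. Those in both were at Ackr3, Ccr10, Cxcl12 and Cxcl2.

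Most of these genes lie in clusters of tandem copies. With members no more than 200 kb apart joined, a grouping chosen after values were seen, 36 lay in 9 runs of 2 or more and 21 stood alone. Of the 36, 3 had a narrow promoter peak in both libraries and 18 had no peak of either list. Of the 21, 6 had such a promoter peak and 4 had no peak. The shares of all genes were 56.0% and 20.8%. Of the genes with repeated promoter words, Ccl27b, Ccl19 and Ccl21a are among the 18 and Ccl21b is among the 4. In a receptor run of 8 genes on chromosome 9, 0 genes had a distal narrow peak in both libraries and 5 had no promoter or distal peak of either list (Cxcr6, Xcr1, Ccr1, Ccr1l1, Ccr2). On chromosome 11, the run of Ccl5, Ccl9, Ccl6, Ccl3 and Ccl4 had no peak at 4 of 5 genes, Ccl5 being the other. In the neighbouring run of 6 from Ccl2 to Ccl1, 2 had no peak (Ccl8 and Ccl12). The 3 genes Ccl22, Cx3cl1 and Ccl17 on chromosome 8 lie within 66.4 kb and differed: a promoter peak at Cx3cl1, a distal peak at Ccl17 and neither at Ccl22.

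Other genes of the pathway, listed with earlier results known, included further receptors and ligands, signal carriers, sheddases and transcription factors. Of 32 such genes, 20 had a narrow promoter peak in both libraries, against 56.0% of all genes. No peak of either list was found at 4, against 20.8% of all genes. The 4 were the platelet chemokines Pf4 and Ppbp, the scavenger Ccrl2, and Pik3cg, a lipid kinase of leukocytes. Cx3cr1 had 0 promoter peaks and 7 distal narrow peaks in replicate 1 and 4 in replicate 2, the strongest at 5.09 and 4.53. Its annotated span is 168 kb. With 10 kb on each side it held 13 and 7 narrow peaks in all, the others lying near starts of other genes. Which gene the distal peaks belong to was not tested. The sheddases Adam10 (4.35 and 2.77) and Adam17 (3.90 and 3.22) had promoter peaks, as did the G protein gene Gnai2 (3.07 and 2.32), the arrestin gene Arrb2 (4.22 and 3.86) and the receptor kinase gene Grk6 (5.83 and 4.90). Of the factors, Rela had 2.34 and 2.54, Nfkb1 had 1.17 and 0.833, and Irf1 had 1.57 and 1.39. The leukocyte genes Dock2 and Vav1 had 0 promoter peaks and 4 or 5 distal narrow peaks per library, over annotated spans of 557 kb and 48.9 kb. Rac2 and Rgs1 also had 0 promoter peaks, with 1 and 2 distal narrow peaks at Rac2 and 0 in each library at Rgs1.

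Marker genes of the cell types the tissue could hold were read by the same counts. Excitatory neuron markers had a narrow promoter peak in both libraries at 4 of 6 genes and a distal narrow peak in both at 4 of 6. Oligodendrocyte markers had 2 of 5 and 5 of 5, astrocyte markers 1 of 5 and 4 of 5, and inhibitory neuron markers 0 of 5 and 1 of 5. The shares of all genes were 56.0% for the promoter peak and 32% for the distal peak. Microglial markers had a narrow promoter peak at 0 of 6 and a distal narrow peak at 3 of 6. Endothelial markers had 0 of 5 and 3 of 5, and pericyte and smooth muscle markers had 1 of 5 (Kcnj8) and 2 of 5. T and B lymphocyte markers had 0 of 6 and 3 of 6, and neutrophil and monocyte markers had 1 of 6 (Mpo) and 1 of 6. The part of cell type shares in the counts of chemokine genes was not tested.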

How the data were processed

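The members and lists were chosen with earlier results of these data known. Notes among the deposited files say that the authors called DNase-seq peaks separately for every library, on mm10. No aligner or caller is named in the sources used here. The authors deposited 2 peak lists per library with a signal value per peak, used as strength without scaling, and the means ± SD are over the 2 libraries. The deposited false discovery rates, a kind of p-value, list only values under 0.05, and every narrow peak held an interval at 0.001 or less. The footprint value is constant and was not used.

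Genes, starts and sequence came from GRCm38 with GENCODE M21, and 0 of 564162 intervals passed a chromosome end. Overlap meant at least 1 bp, and footprints were placed by midpoint. A peak could count for more than 1 gene. The principal start is that of 1 coding transcript per gene. Named were all genes with a narrow promoter peak in any library, all neural, vascular and stromal genes, and the 5 others with most distal peaks of the broader list. Percentiles compare a strength with the strongest promoter peaks of all genes in the same library. Results for some genes that the rules name are not reported here. Counting steps were tested on simulated intervals. Python 3.11.15, numpy 2.4.6, pandas 2.3.3 and matplotlib 3.10.9 were used. The number of libraries limits the precision, and no interval was computed.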

Additional observations from a re-analysis of the deposited data

How the results depend on the processing

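Of 40 alternative counts over the 57 genes, 31 stayed within 1.5 times the reported value and 9 did not. With the strongest 50% of each list, narrow promoter peaks in both libraries fell to 3 genes, promoter peaks of the broader list to 7, distal narrow peaks to 11 and distal peaks of the broader list to 15, with 48.4%, 56.3%, 18.7% and 33.3% of all genes at that setting. At the principal start alone, promoter peaks of the broader list were found at 8 genes and promoter footprints at 7, with 58.2% and 56.4% of all genes. With 5 kb on each side of the gene, distal narrow peaks were found at 13 genes, and with 50 kb at 33 genes, or 41 in the broader list. The same settings moved the background, to 25.9% of all genes for distal narrow peaks with 5 kb and 60.9% with 50 kb, and to 77.4% for the broader list with 50 kb. Left to a single library, the counts ranged from 9 to 11 (narrow promoter) and were 15 in each (broader promoter). The counts ranged from 20 to 24 (distal narrow), were 27 in each (distal broader) and ranged from 12 to 13 (footprints). In that order, the shares of all genes were 58.0% to 58.2%, 63.6% to 64.1%, 35.9% to 38.9%, 53.1% to 54.3% and 61.9% to 62.4%. Without the 5 genes of repeated promoter sequence, a setting chosen after seeing the data, the counts were 9 and 12 for promoter peaks of the narrow and broader lists, 20 and 26 for distal peaks and 11 for footprints. Of 37 alternatives for single genes, 1 moved by more than the spread: the Cxcl12 promoter peak nearest a start had a mean strength of 0.607. No paired analysis was possible because the libraries form 1 group. Read depth was not known, so an absent peak is one not called and not a measured lack of accessibility.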
